A study of Homo sapiens with 6 samples.

Results

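The integrated stress response and the unfolded protein response were followed through a list of 40 genes in ARPE-19 cells, a human retinal pigment epithelium (RPE) cell line. The genes were listed by name and fall into an ATF4 arm of 23 genes, an endoplasmic reticulum (ER) arm of 13 genes and a group of 4 mitochondrial chaperone and protease genes. In the table of 37902 genes, 37 of the 40 were found, and 36 had a mean normalised count of at least 10 and were tested together with the other genes, 14684 in all. FGF21, a hormone of the FGF family, was listed at 0 in all 6 libraries and was not tested. SESN2, PCK2 and HYOU1 were not analysed here.

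Libraries of polyadenylated RNA were prepared from wildtype ARPE-19 cells (WT) and from a POLDIP2 knockout ARPE-19 line (POLDIP2 KO), with 3 biological replicates of each, numbered 1 to 3. Both lines were under regular maintenance and were collected at day 3, so no stress agent was applied. The POLDIP2 KO line was made with a lentivirus that carries Cas9 and a guide RNA, followed by puromycin selection and expansion with no cloning step stated, whereas WT cells were the untransduced parent. Effects of POLDIP2 loss therefore cannot be told apart from those of the vector and the selection.

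When a cell meets misfolded protein, a shortage of amino acids or failing mitochondria, kinases phosphorylate the initiation factor eIF2, general translation slows, and the mRNA of the transcription factor ATF4 is translated more. ATF4 then switches on genes for amino acid supply and for signalling, while ATF6 and the spliced form of XBP1 switch on chaperones of the ER. RPE cells carry a heavy load of protein folding and lysosomal degradation.

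Short DNA elements to which the factors of these arms bind were searched for, and segments around some of the matches are shown here for members to which the results return. In the RefSeq promoter windows of GRCh38.p14, 250 bases before to 50 bases after each start, the C/EBP-ATF response element TGATGNAA, which ATF4 binds, was searched for on both strands. It was found in 6 of the 52 windows of the 37 members that had one (11.5%), against 3.62% of all 35116 windows. The 6 genes were ASNS, ATF3, CHAC1, FGF21, HERPUD1 and SLC3A2, with the match of SLC3A2 lying after its start. Below, each segment reads 5′ to 3′ along the strand of the gene and the element is in capitals. Where it reads TTGCATCA, the match is on the opposite strand. The segments lie at chr7:97872444-97872501 on the minus strand (ASNS), chr1:212565191-212565248 on the plus strand (ATF3), chr15:40953237-40953294 on the plus strand (CHAC1) and chr16:56931941-56931998 on the plus strand (HERPUD1).
ASNS: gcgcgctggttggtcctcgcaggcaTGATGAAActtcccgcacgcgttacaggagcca
ATF3: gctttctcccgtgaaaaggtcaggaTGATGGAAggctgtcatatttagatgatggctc
CHAC1: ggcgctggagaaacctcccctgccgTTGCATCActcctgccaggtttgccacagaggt
HERPUD1: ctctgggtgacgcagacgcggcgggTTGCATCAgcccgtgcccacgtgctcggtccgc

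The ER stress response element, through which ATF6 and XBP1 act, was searched for as CCAAT and CCACG separated by 9 bases, on both strands. It was found in 5 of the 52 windows of members (9.62%) and in 27 of all 35116 windows (0.0769%). The 5 genes, HSPA5, XBP1, PDIA6, CRELD2 and HSP90B1, all belong to the ER arm, and none of them held the C/EBP-ATF response element. Last, the unfolded protein response element TGACGTGG, whose last bases are the reverse complement of CCACG, was searched for on both strands and found in the window of HYOU1 alone among members, against 0.729% of all windows. The segments of HSPA5, XBP1 and PDIA6 lie on the minus strand at chr9:125241366-125241434, chr22:28800578-28800646 and chr2:10812828-10812896, and that of CRELD2 on the plus strand at chr22:49918529-49918597.
HSPA5: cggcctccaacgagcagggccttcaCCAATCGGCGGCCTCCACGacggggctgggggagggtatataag
XBP1: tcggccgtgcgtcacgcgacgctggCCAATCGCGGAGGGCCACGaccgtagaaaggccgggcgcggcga
PDIA6: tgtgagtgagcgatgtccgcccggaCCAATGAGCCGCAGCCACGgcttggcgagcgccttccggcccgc
CRELD2: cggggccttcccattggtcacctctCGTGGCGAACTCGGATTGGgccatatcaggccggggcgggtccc

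POLDIP2 itself had normalised counts of 3919, 4827 and 4798 in WT and 1063, 1248 and 1143 in POLDIP2 KO, a log2 fold change of -1.97 (adjusted p = 0.00961, limma). The 6 libraries held 31532797 to 45795509 recovered reads, which derive from Salmon estimates. Of 13 RPE markers, RPE65, TYR and TTR were at 3 reads or fewer in every library, as were AIF1 and CD3E of 6 immune markers and CDH5 and CLDN5 of 6 endothelial markers. The summed RPE markers ranged from 76331 to 92276 in WT and from 72653 to 100340 in POLDIP2 KO, and the summed immune markers from 1705 to 2219 and from 1875 to 2158. Some exact zeros may be failed estimates, since DNAJA3, a mitochondrial co-chaperone gene, was also at 0 in all 6 libraries. Between lines, 25 genes passed an adjusted p of 0.05 and a 1.5-fold change, 12 higher and 13 lower in POLDIP2 KO.

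Most members were well expressed without any stress agent. Scaled per kilobase of the canonical transcript, the highest level in WT was that of HSP90B1, the ER chaperone GRP94, at a mean normalised count of 17693 per kilobase, followed by the disulfide isomerase PDIA6 at 7806 and the amino acid transporter SLC7A5 at 6496. HSPA5, the ER chaperone BiP, stood at 3358 per kilobase and ATF4 at 1498. At the other end were CHAC1 at 139 per kilobase, GDF15 at 29.6, ADM2 at 6.17 and VLDLR at 3.79, with ALDH1L2 listed at 0 in WT.

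No member passed the adjusted test between the lines, and the values of the ATF4 arm lay further below 0 than those of the ER arm. By limma on log2(normalised count + 1), 0 of the 36 members passed, where 0.17% of all tested genes did in either direction, and the lowest adjusted p of any member was 0.186. At an unadjusted p of 0.05, 4 members were lower (SLC3A2, PHGDH, ASNS and ADM2), where 3.47% of all genes were, and 1 was higher (ALDH1L2), where 3% were. ADM2 and ALDH1L2 had a mean of at least 10 only in the line where they were high, so they are not read as support. edgeR on recovered reads called no member, where it called 0.116% of all genes, and DESeq2 called 2, ALDH1L2 and SLC3A2, where it called 1.69%. The log2 fold change was under 0 for 16 of the 20 tested genes of the ATF4 arm, 7 of the 12 of the ER arm and 3 of the 4 mitochondrial genes, against 50.1% of all genes. ADM2 is among the 16, and ALDH1L2 is among those above 0. Medians were -0.23 in the ATF4 arm, -0.05 in the ER arm, -0.06 in the mitochondrial group and -0.00 over all genes.

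**Figure D1:**
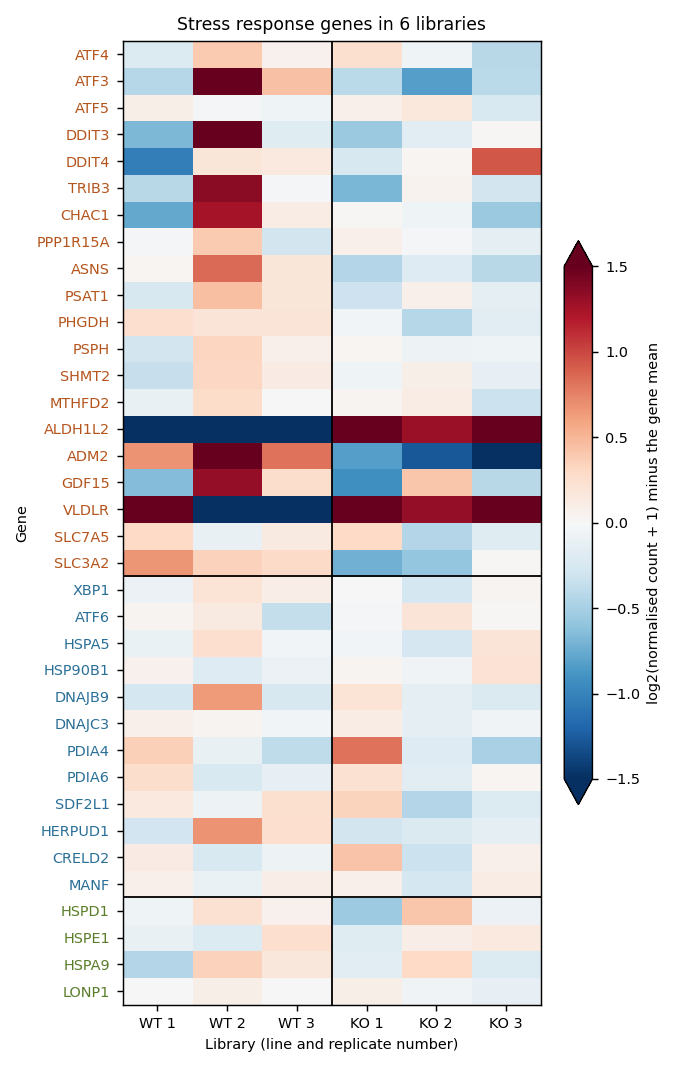
Level of the 36 tested genes (rows) in each library (columns), as log2(normalised count + 1) minus the mean of the gene over the 6 libraries, with gene names in orange for the ATF4 arm, blue for the ER arm and green for mitochondrial genes; colours end at 1.5 in either direction. WT replicate 2 is the highest library for 13 of the 20 genes of the ATF4 arm, ADM2 among them, and for 4 of the 12 of the ER arm.

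The lower median of the ATF4 arm moved with the libraries used. Without WT replicate 2 it was -0.01, with 12 of 20 genes under 0 where 49.7% of all genes were, and the median of the ER arm was -0.00. Without WT replicate 1 the medians of the groups within the ATF4 arm lay further below 0. They went from -0.32 to -0.62 in transcription factors and from -0.23 to -0.48 in signalling and feedback. In the enzymes the median went from -0.11 to -0.25, and in the secreted factors, receptor and transporters from -0.62 to -0.74. WT replicate 2 was the highest of the 6 libraries for 19 of the 36 members, against 16.1% of all tested genes. ADM2, which passed the filter on low values only through WT, is counted in the 12 genes under 0 and in the 19. Paired by replicate number, the median of POLDIP2 KO minus WT in the ATF4 arm was 0.06 in pair 1, -0.43 in pair 2 and -0.29 in pair 3.

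Among the transcription factors, ATF4, the hub of the response, had normalised counts of 1718, 2595 and 2063 in WT and of 2337, 1889 and 1486 in POLDIP2 KO. The lines overlapped, and the log2 fold change was -0.16 ± 0.21 (SE, n = 3 per line). Its gene lies at chr22:39519695-39522683, and since ATF4 is set largely by translation, its RNA does not show the level of the protein. ATF5, a related factor tied to mitochondrial stress, ran from 904 to 1010 in WT and from 806 to 1059 in POLDIP2 KO, with a log2 fold change of 0.00 and a 95% interval from -0.33 to 0.34.

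ATF3, a stress-induced repressor, stood at 593, 2457 and 1086 in WT and at 605, 452 and 605 in POLDIP2 KO. WT replicate 1 fell among the POLDIP2 KO libraries and WT replicate 2 was far above all others. The log2 fold change was -1.09 ± 0.47 (SE; unadjusted p = 0.0551, adjusted p = 0.791, limma) and fell in size to -0.55 without WT replicate 2. DDIT3, which encodes the death-linked factor CHOP, had 316, 1510 and 446 in WT and 344, 449 and 514 in POLDIP2 KO. Apart from WT replicate 2, the libraries of both lines were interleaved, and the log2 fold change turned from -0.47 to 0.20 without that library.

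The 4 tested genes of signalling and feedback overlapped between the lines. TRIB3, a pseudokinase that restrains AKT and CHOP, had 799, 2740 and 1060 in WT and 663, 1110 and 881 in POLDIP2 KO. CHAC1, which breaks down glutathione, had 91.6, 373 and 169 in WT and 159, 149 and 106 in POLDIP2 KO. In both, WT replicate 2 alone exceeded every POLDIP2 KO library by a wide margin. The log2 fold changes were -0.61 for TRIB3 and -0.40 for CHAC1, and -0.09 and 0.13 without WT replicate 2. DDIT4, an inhibitor of mTORC1, ran the other way, at 985, 2289 and 2228 in WT and 1701, 2051 and 3847 in POLDIP2 KO, with a log2 fold change of 0.47 and a 95% interval from -0.50 to 1.45. Its value was 0.07 without WT replicate 1 and 0.13 without POLDIP2 KO replicate 3. PPP1R15A, the phosphatase subunit that restores eIF2, differed least, at -0.06 with an interval from -0.48 to 0.36.

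In the enzymes of serine and asparagine synthesis, ASNS and PHGDH lay lower in POLDIP2 KO without overlap, where 5.44% of all tested genes did. ASNS, asparagine synthetase (ENSG00000070669, chr7:97851677-97872542), had 1562, 2773 and 1734 in WT and 1127, 1338 and 1144 in POLDIP2 KO. Every POLDIP2 KO library was under every WT library, with the gap narrowest against WT replicate 1. The log2 fold change was -0.71 ± 0.22 (SE), a 1.63-fold lower level, with an unadjusted p of 0.0152 and an adjusted p of 0.514 (limma). Without WT replicate 2 it was -0.46 and the lines still did not overlap.

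PHGDH, the first enzyme of serine synthesis (ENSG00000092621, chr1:119648411-119744218), had 5011, 4809 and 4820 in WT and 4083, 3125 and 3727 in POLDIP2 KO. The coefficient of variation in WT was 2.33%. All 3 POLDIP2 KO libraries were lower, and they spread more widely than those of WT. Its log2 fold change was -0.43 ± 0.12 (SE; unadjusted p = 0.00915, adjusted p = 0.402, limma), and -0.44 without WT replicate 2, so its value did not rest on that library. The next enzyme, PSAT1, had 3895, 6296 and 5214 in WT and 3714, 4856 and 4179 in POLDIP2 KO, lower in all 3 same-numbered pairs but overlapping, with a log2 fold change of -0.25. PSPH, the last enzyme of the route, was at -0.08.

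In one-carbon metabolism, the mitochondrial enzymes SHMT2 and MTHFD2 had log2 fold changes of -0.06 and -0.11. Their 95% intervals, from -0.48 to 0.35 and from -0.48 to 0.26, lay within a 1.5-fold change. ALDH1L2, the mitochondrial formyltetrahydrofolate dehydrogenase (ENSG00000136010, chr12:105019784-105107643), was listed at 0 in all 3 WT libraries and had 44.3, 9.77 and 13.9 in POLDIP2 KO, which came from 36, 12 and 14 reads. All POLDIP2 KO libraries were above WT, at a low level, and the adjusted p was 0.186 by limma and 0.00448 by DESeq2. ALDH1L2 passed the filter on low values only through POLDIP2 KO, the line where it is high, so these p values and the calls of it by DESeq2 are not read as support. No fold is given against a line listed at 0.

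**Figure D2:**
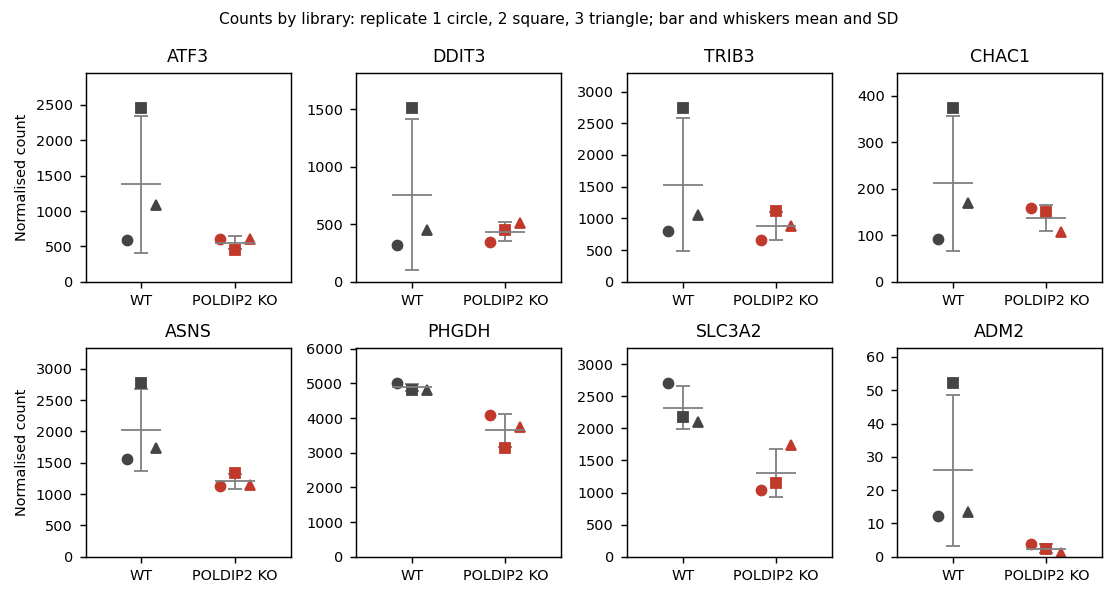
Normalised counts of 8 genes of the ATF4 arm in each library (circles replicate 1, squares replicate 2, triangles replicate 3; grey in WT, red in POLDIP2 KO), with the mean and SD of each line (n = 3) and axes from 0. In the upper row WT replicate 2 stands above all other libraries, and in the lower row all POLDIP2 KO libraries lie below all WT libraries.

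Among transporters, SLC3A2, the heavy chain of the LAT1 amino acid exchanger (ENSG00000168003, chr11:62856004-62888880), had 2707, 2173 and 2092 in WT and 1037, 1146 and 1734 in POLDIP2 KO. The lines did not overlap, though POLDIP2 KO replicate 3 came close to WT. The log2 fold change was -0.86 ± 0.21 (SE), or 1.81-fold lower, with an adjusted p of 0.295 by limma and 0.0283 by DESeq2. It was -0.90 without WT replicate 2, where the adjusted p by DESeq2 was 0.114. SLC7A5, the light chain of the same exchanger, had 33638, 25212 and 29938 in WT and 33531, 20122 and 24069 in POLDIP2 KO. Its lines overlapped and its log2 fold change was -0.21, with a 95% interval from -0.71 to 0.28. Whether the 2 chains changed differently was not tested.

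The secreted factors were scarce. ADM2, the peptide intermedin, had 12.3, 52.2 and 13.6 in WT and 3.69, 2.44 and 0.993 in POLDIP2 KO, the latter from 3, 3 and 1 reads. Summed over the libraries, 78 reads in WT stood against 7 in POLDIP2 KO, a ratio of 11.3 after size factors with an exact interval of 5.22 to 29.0 that covers counting error only. WT replicate 2 gave 52 of the 78 reads, and without it the ratio was 5.62 (2.37 to 15.3) and the log2 fold change -2.13 in place of -2.77. The spread between libraries was wider, and the adjusted p was 0.393 (limma). ADM2 passed the filter on low values only through WT, the line where it is high. Its ratios, intervals and p value are therefore not read as support. GDF15, a circulating stress signal, had 15.1, 62.2 and 29.2 in WT and 12.3, 32.6 and 17.9 in POLDIP2 KO, lower in all 3 pairs with overlap between the lines. VLDLR, a lipoprotein receptor, was listed at 105, 0 and 0 in WT and at 137, 43.96 and 50.6 in POLDIP2 KO, so that WT replicate 1 lay inside the range of POLDIP2 KO.

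Counted over the list, 4 members lay lower in POLDIP2 KO without overlap (ASNS, PHGDH, SLC3A2 and ADM2), where 5.44% of all genes did, and 1 lay higher (ALDH1L2), where 5.46% did. ADM2 and ALDH1L2 had a mean of at least 10 only in the line where they were high, so they had to differ to be tested. Among the other 34 tested members, 3 lay lower and 0 higher without overlap, where 5.04% and 5.31% of the 14298 genes with a mean of at least 10 in both lines did. The 5 are the genes that reached an unadjusted p of 0.05. All 5 did so again without WT replicate 2, where 3.17% of all genes were lower and 2.72% higher at that p. The fit without WT replicate 2 reuses the remaining libraries and the same filter, so it is not a separate test. ADM2 and ALDH1L2 are not read as support in either fit. limma called 0 members and 0% of all genes without WT replicate 2, and DESeq2 called no member but ALDH1L2, where it called 1.65% of all genes. Members lower in all 3 same-numbered pairs numbered 8, all in the ATF4 arm, where 15.7% of all genes were lower in all 3. The 8 include ADM2, which is not read as support here either. With the replicate number as a block, still no member passed the adjusted test by limma, where 0.204% of all genes did, and 8 reached an unadjusted p of 0.05 in place of 5, where 11.1% of all genes did. The additions were TRIB3 and PSAT1, lower, and VLDLR, higher. DESeq2 with the block called 3 members, ASNS at -0.71 (adjusted p = 0.00176), SLC3A2 at -0.86 (adjusted p = 0.00729) and ALDH1L2 (adjusted p = 0.016), where 2.67% of all genes were called. PHGDH, at -0.43, had an adjusted p of 0.0119 by DESeq2 with the block but fell short of a 1.5-fold change. By DESeq2 without the block its adjusted p was 0.11.

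**Figure D3:**
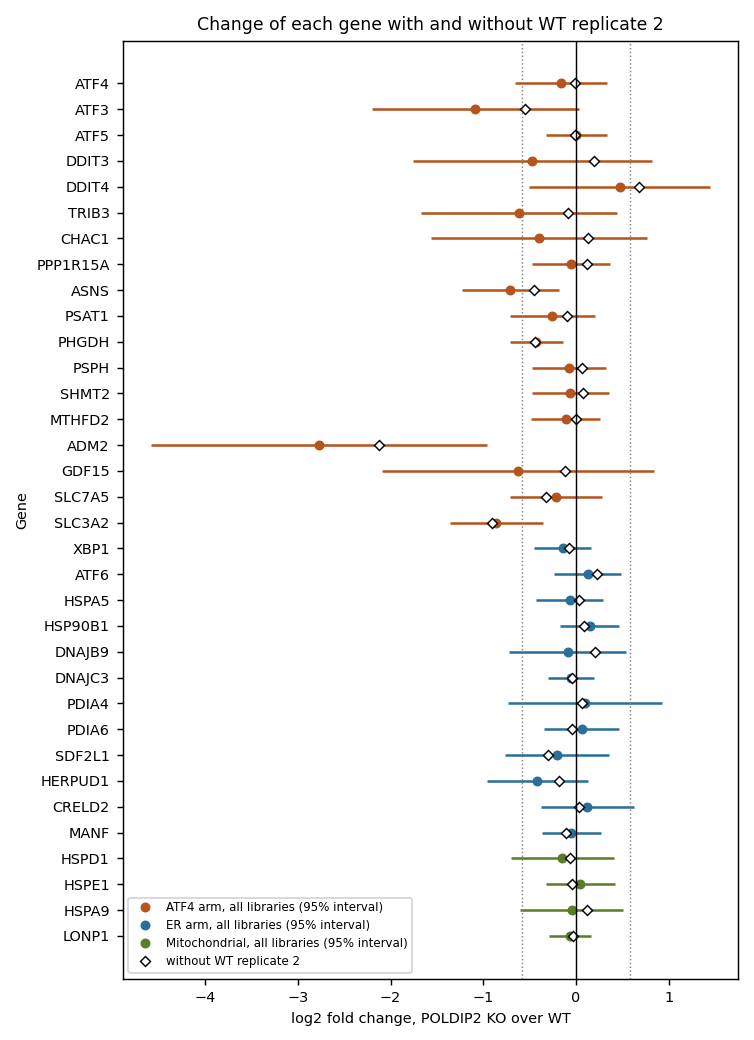
The log2 fold change of POLDIP2 KO over WT (horizontal axis) for 34 genes, as filled points with 95% intervals from limma on all 6 libraries and as open diamonds without WT replicate 2; dotted lines mark a 1.5-fold change, and ALDH1L2 and VLDLR, with exact zeros in WT, are left out. The diamonds of DDIT3 and CHAC1 lie on the other side of 0 from their points, while those of PHGDH and SLC3A2 stay close to them.

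The factors of the ER arm differed little between the lines. XBP1 had 3098, 3799 and 3534 in WT and 3318, 2738 and 3403 in POLDIP2 KO, a log2 fold change of -0.14 with a 95% interval from -0.45 to 0.17. ATF6, the membrane-bound sensor that is cut to a transcription factor, was at 0.12 with an interval from -0.24 to 0.48. Gene counts do not separate the spliced from the unspliced XBP1 transcript.

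Chaperones followed the same pattern. HSPA5, or BiP, the standard readout of ER stress, had 11901, 15174 and 12422 in WT and 12373, 10713 and 14637 in POLDIP2 KO, which gave a log2 fold change of -0.07 (95% interval -0.44 to 0.30). HSP90B1 had 54105, 45169 and 48390 in WT and 53291, 49935 and 60099 in POLDIP2 KO, and its interval was -0.18 to 0.47. The lines were mixed in both, and both intervals were inside a 1.5-fold change. Such an interval was found for 14 of the 36 members, where 47.5% of all genes had one, and 7 of the 14 were in the ER arm: XBP1, ATF6, HSPA5, HSP90B1, PDIA6, the BiP co-chaperone DNAJC3 and the secreted factor MANF.

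HERPUD1, a part of the machinery that removes misfolded ER proteins, had the most negative value of the arm. Its normalised counts were 2176, 4238 and 3164 in WT and 2197, 2293 and 2436 in POLDIP2 KO, so that WT replicate 1 fell just under the POLDIP2 KO libraries. The log2 fold change was -0.42 ± 0.23 (SE; adjusted p = 0.951, limma), and -0.19 without WT replicate 2. DNAJB9, a BiP co-chaperone, had 575, 1078 and 587 in WT and 801, 631 and 598 in POLDIP2 KO. Its value turned from a log2 fold change of -0.09 to 0.21 without WT replicate 2. The chaperone partner SDF2L1 was at -0.21, with 181 to 309 in POLDIP2 KO around 234 to 291 in WT.

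Disulfide isomerases and their relatives spread more within a line than between lines. PDIA4 had 3067, 2208 and 1829 in WT and 4213, 2099 and 1706 in POLDIP2 KO, with replicate 1 the highest and replicate 3 the lowest of each line. PDIA6 had 21574, 15348 and 16448 in WT and 21089, 15969 and 18302 in POLDIP2 KO. CRELD2, a chaperone-like ER protein, had 714, 558 and 619 in WT and 880, 523 and 691 in POLDIP2 KO. The same order of replicate numbers, 1 above 3 above 2, held in both lines for PDIA6 and CRELD2, and the log2 fold changes between lines were 0.09, 0.06 and 0.12.

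Mitochondrial chaperones were near 0 as well. HSPD1, the chaperonin HSP60, had 11485, 14139 and 12580 in WT and 8273, 16075 and 11301 in POLDIP2 KO, a log2 fold change of -0.15 (95% interval -0.70 to 0.41). Its partner HSPE1 was at 0.05, the import chaperone HSPA9 at -0.05 and the matrix protease LONP1 at -0.06. HSPE1 and HSPD1 have 26 and 18 pseudogenes named after them in GENCODE, and MTHFD2 has 7, so reads may have been split among copies. In all, 11 members have at least 1 such pseudogene.

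The excess in WT replicate 2 was then described across genes, with a 2-fold limit chosen after the values were seen. In 6 members, this library was over 2-fold above the mean of the other WT replicates, against 3.97% of all tested genes. The folds were 4.01 for DDIT3, 3.82 for ADM2, 3.06 for ATF3, 2.98 for TRIB3 and CHAC1, and 2.86 for GDF15. All 6 are in the ATF4 arm. ADM2 passed the filter on low values only through WT, with WT replicate 2 its highest library, so its excess is not read as support. Below that limit were HERPUD1 at 1.62, ASNS at 1.69 and DNAJB9 at 1.85, while the ATF4 gene itself was at 1.38 and PHGDH at 0.979. WT replicate 2 was the highest library for 19 of the 36 tested members, ADM2 among them. Of the members with the C/EBP-ATF response element shown above, ASNS, ATF3, CHAC1 and HERPUD1 each had WT replicate 2 as the highest library. SLC3A2, which also holds the element, had WT replicate 1 as the highest, and FGF21 was at 0. Among those with the ER stress response element, HSPA5 and XBP1 had WT replicate 2 as the highest, at 1.25 and 1.15. PDIA6, CRELD2 and HSP90B1 did not, at 0.815, 0.839 and 0.883. DDIT3, TRIB3, ADM2 and GDF15, all past the 2-fold limit, held no match to the C/EBP-ATF response element in their windows. Whether either element goes with the excess was not tested.

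**Figure D4:**
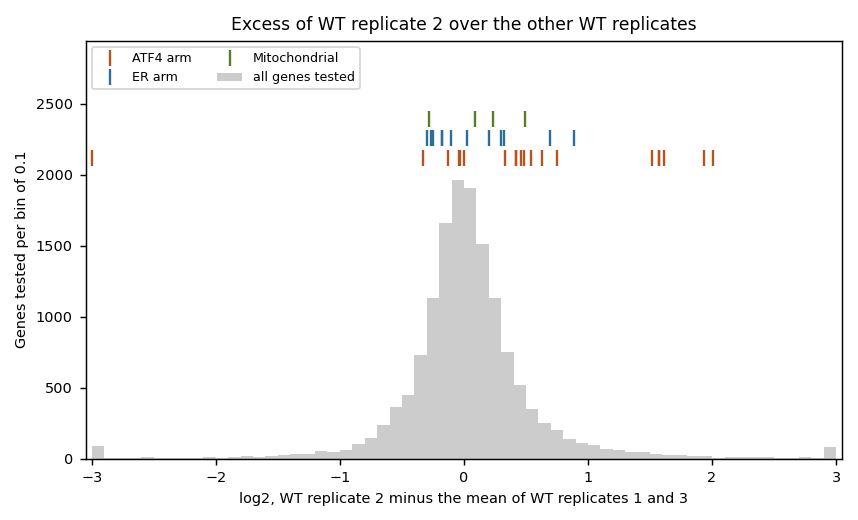
Distribution over all 14684 tested genes (grey bars, bins of 0.1, with values past 3 in either direction put in the end bins) of the log2 level in WT replicate 2 minus the mean of WT replicates 1 and 3; ticks above give the members by group. The ATF4 arm has its ticks shifted to the right, 6 of them past 1, ADM2 included, and the tick at the left edge is VLDLR.

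POLDIP2 KO replicate 2, which carries the same number, exceeded the mean of POLDIP2 KO replicates 1 and 3 over 2-fold in GDF15 alone. The median excess of replicate 2 in the ATF4 arm was 0.47 on the log2 scale in WT and 0.06 in POLDIP2 KO, and in the ER arm it was -0.04 and -0.30. Library measures of WT replicate 2 lay within those of the other 5: 5.57% of its normalised counts were mitochondrially encoded (4.28% to 6.35% in the others), and 15966 genes had over 3 reads (15513 to 16112). WT replicate 2 was highest in 9 of 20 other ATF4 targets, 5 of 12 tRNA synthetases and 4 of 10 tested RPE markers. Its median excesses there were 0.26, 0.27 and 0.21. It was so in 5 of 16 genes upstream of ATF4, 4 of 23 other ER folding genes and 3 of 7 other mitochondrial genes. Those medians were -0.00, -0.15 and 0.06. Over all tested genes the share was 16.1%. Among 9 tested cytosolic heat shock genes, WT replicate 2 was the highest of the 6 libraries in 0, and its median excess there was -0.41. The most altered of these genes, HSPA1A and HSPA1B, which encode inducible HSP70, had log2 fold changes between lines of -0.32 each (adjusted p = 1.00, limma). What set WT replicate 2 apart was not tested.

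Members were also compared by replicate number. Replicate 1 was the highest in both lines for 7 members, where 22% of all genes had it so, with 4 in the ER arm (PDIA4, PDIA6, CRELD2 and DNAJC3) and 3 in the ATF4 arm (SLC7A5, PHGDH and VLDLR). It was the lowest in both lines for 8, where 20.5% did, with 6 in the ATF4 arm (DDIT3, DDIT4, TRIB3, ASNS, PSAT1 and GDF15), and HERPUD1 and HSPD1. By a limma F-test of replicate number, 0 members passed the adjusted threshold, where 0.913% of all genes did, and 12 reached an unadjusted p of 0.05, where 18.9% did. The lowest adjusted p were 0.102 for PDIA4, 0.137 for SLC7A5 and 0.144 for PDIA6. Beyond the members, 2 genes of the related lists passed this test. CALR, the ER chaperone calreticulin, had 60622, 32438 and 36284 in WT and 60210, 33026 and 38543 in POLDIP2 KO (adjusted p = 0.0361, limma), and SLC7A11, the cystine transporter, had 1790, 4065 and 7886 in WT and 2128, 4570 and 5777 in POLDIP2 KO (adjusted p = 0.04999, limma).

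**Figure D5:**
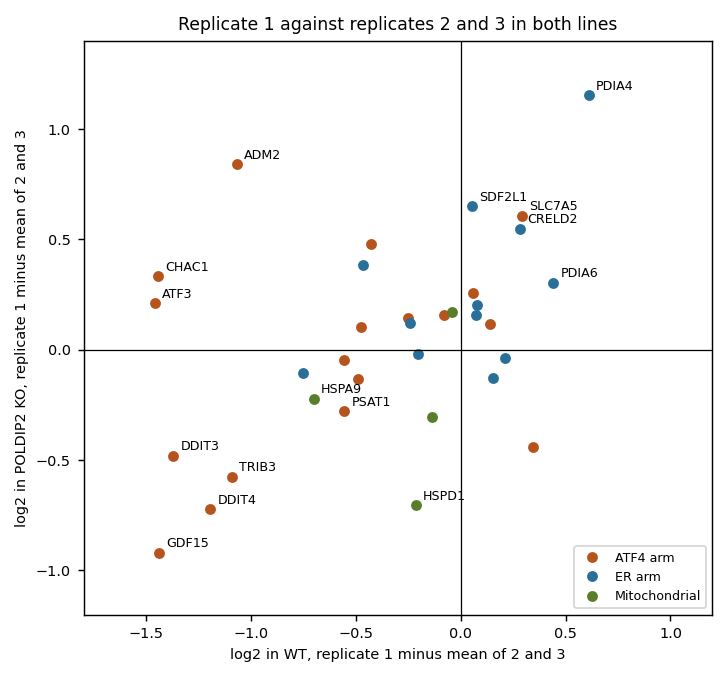
For 34 genes, the log2 level of replicate 1 minus the mean of replicates 2 and 3 in WT (horizontal axis) and in POLDIP2 KO (vertical axis). PDIA4, PDIA6, CRELD2 and SLC7A5 lie above 0 in both lines, DDIT3, DDIT4, TRIB3 and GDF15 below 0 in both, and ATF3, CHAC1 and ADM2 below 0 in WT alone.

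Further genes of the pathways were counted beside the members. Over all tested genes, limma called 0.17%, and 50.1% had a log2 fold change under 0. At an unadjusted p of 0.05, 3% of all genes were higher and 3.47% lower. Of 20 other ATF4 targets, 0 were called by limma, 2 were higher and 3 lower at an unadjusted p of 0.05, and the median log2 fold change was -0.06. Under 0 were 14 of the 20, and 9 without WT replicate 2, where the median was 0.03. SLC1A5, the glutamine transporter ASCT2, had 894, 742 and 1198 in WT and 2048, 2610 and 3230 in POLDIP2 KO. Its lines were far apart, in the direction opposite to SLC3A2, with a log2 fold change of 1.48 ± 0.23 (SE; adjusted p = 0.0862, limma), and it was called with the replicate block (adjusted p = 0.0477, limma) and by DESeq2 (adjusted p = 8.86e-07). SLC1A4, a carrier of serine and alanine, had 935, 807 and 855 in WT and 683, 548 and 579 in POLDIP2 KO, a log2 fold change of -0.52 (adjusted p = 0.355, limma).

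Of 12 cytosolic tRNA synthetase genes, 0 were called, 1 was lower at an unadjusted p of 0.05, where 3.47% of all genes were, and 9 were under 0. Without WT replicate 2, 5 of the 12 were under 0, and the median log2 fold change moved from -0.07 to 0.02. GARS1, glycyl-tRNA synthetase, had 2186, 1800 and 979 in WT and 134, 232 and 728 in POLDIP2 KO, without overlap, with a log2 fold change of -2.47 ± 0.61 (SE; adjusted p = 0.295, limma). TARS1, threonyl-tRNA synthetase, was at -0.17. Of 23 tested other genes of ER folding and ER-associated degradation, 0 were called, where 0.17% of all genes were, and 13 were above 0. DERL1, a channel subunit for removal of ER proteins, had 2530, 2200 and 2409 in WT and 3378, 3134 and 3190 in POLDIP2 KO, a log2 fold change of 0.44 ± 0.10 (SE; adjusted p = 0.243, limma). PDIA3, a disulfide isomerase, was at 0.56 with overlap between the lines.

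Upstream of ATF4, 0 of 16 genes for eIF2 kinases, eIF2, eIF2B and the mitochondrial relay were called, where 0.17% of all genes were. Under 0 were 8 of them, against 50.1% of all genes. EIF2AK2, the kinase PKR, had 2492, 2787 and 2933 in WT and 2588, 2161 and 1765 in POLDIP2 KO, a log2 fold change of -0.35 (unadjusted p = 0.0623, limma). EIF2AK3, the ER kinase PERK, had 910, 943 and 812 in WT and 838, 448 and 723 in POLDIP2 KO, a log2 fold change of -0.45 (unadjusted p = 0.097, limma). These kinases act through phosphorylation, which RNA does not show. Among 7 tested other genes of mitochondrial proteostasis, 0 were called, where 0.17% of all genes were, and 3 were above 0. The most altered were the protease genes CLPP at -0.08 and YME1L1 at 0.04.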

How the data were processed

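RNA of 3 WT and 3 POLDIP2 KO samples was sequenced, and 1 table of normalised counts was deposited. The authors made this signal with Salmon 1.8, tximport and DESeq2 1.34.0 on GRCh38. The annotation release is not stated, and the values are not scaled by gene length. Symbols and positions were taken from GENCODE release 44, and promoters from RefSeq. All sample columns were used. Whole reads were recovered by dividing each column by its smallest value above 0, with all values whole within a tolerance of 0.001. Recovered reads summed to 31532797 to 45795509 per library, so that a floor of 3 reads equals a normalised count of 2.44 to 3.69. They derive from Salmon estimates and are not the sequenced depth, for which the paper gives a higher range.

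POLDIP2 KO was compared with WT with limma 3.58.1 (lmFit, eBayes with trend) under R 4.3.3, applied to log2(normalised count + 1) of the 14684 genes whose mean was 10 or more, with Benjamini-Hochberg adjustment over these genes. A gene was called at an adjusted p under 0.05 and over 1.5-fold. Fold changes on this scale understate the change of low genes. edgeR 4.0.16 and DESeq2 1.42.0 were run on recovered reads as alternatives. The limma, edgeR and DESeq2 fits without the block, and the limma F-test of replicate number, were tried on simulated counts. An exact permutation test of 3 against 3 cannot go below 0.1, so none was run. The labels call the replicates biological without naming separate cultures, so p-values measure the spread between these samples.

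Same-numbered libraries correlated at 0.315, 0.137 and 0.129 (deviations from line means over 14684 genes), above the limit of 0.1. Pairs were taken from the replicate numbers in the labels and used in the blocked fits and the counts by pair. The main fits, with their standard errors, intervals and p values, did not use the pairing. Of the differently numbered combinations, WT replicate 3 with POLDIP2 KO replicate 2 was also above it, at 0.147, and the others were below 0. Fits with the replicate number as a block are given where they change a call or a count by over 1.5 times.

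The members and the pathway lists were chosen with earlier results of these data known. All members were named, and of the other lists every gene past the adjusted threshold and otherwise the 2 genes with the smallest p, besides genes named for replicate number. Plots came from matplotlib 3.10.9 and tables from pandas 2.3.3 and numpy 2.4.6, run in Python 3.11.15.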

Additional observations from a re-analysis of the deposited data

How the results depend on the processing

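No member was called by limma under any alternative of pseudocount, filter, variance model or normalisation, with any 1 library left out, or with the replicate block. Over all genes, 12 were called higher and 13 lower. Those lower numbered 6 with a mean of at least 50 and 8 by edgeR. With the replicate block edgeR called 3 higher and 2 lower. DESeq2 called 111 higher and 137 lower, 184 and 208 with the replicate block, and 135 and 108 without WT replicate 2, an alternative chosen after seeing the data; the members called were 2, 3 and 1. Genes called for replicate number numbered 134, 11 without the variance trend and 71 by edgeR. The cause of these differences was not tested. With 1 library left out in turn, 0 to 3 genes were called higher and 0 to 2 lower.

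Leaving out 1 library changed the sign of several small log2 fold changes, none of them called. The ranges were -0.32 to 0.0042 for ATF4, -0.075 to 0.12 for ATF5, -0.93 to 0.20 for DDIT3, -0.88 to 0.13 for CHAC1, -0.21 to 0.12 for PPP1R15A, -0.24 to 0.063 for PSPH, -0.25 to 0.078 for SHMT2 and -0.20 to 0.019 for MTHFD2. In the ER arm they were -0.026 to 0.22 for ATF6, -0.19 to 0.040 for HSPA5, -0.24 to 0.21 for DNAJB9, -0.12 to 0.0022 for DNAJC3, -0.29 to 0.36 for PDIA4, -0.042 to 0.21 for PDIA6, -0.061 to 0.31 for CRELD2 and -0.12 to 0.071 for MANF. In mitochondrial genes they were -0.39 to 0.087 for HSPD1, -0.045 to 0.19 for HSPE1 and -0.28 to 0.12 for HSPA9. By DESeq2 without WT replicate 2, the signs that differed from limma on all libraries were those of ATF4 at 0.012, DDIT3 at 0.20, CHAC1 at 0.085, PPP1R15A at 0.12, PSPH at 0.056, SHMT2 at 0.066, MTHFD2 at 0.013, HSPA5 at 0.051, DNAJB9 at 0.22, PDIA6 at -0.041, HSPE1 at -0.047 and HSPA9 at 0.11. ASNS ranged from -0.87 to -0.46, PHGDH from -0.52 to -0.32 and SLC3A2 from -1.08 to -0.71 with 1 library left out, all negative. The replicate block by limma changed the call of no named gene other than SLC1A5.

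ADM2 and GDF15 had 62 reads or fewer in every library, which limits their precision. ALDH1L2 and VLDLR are limited by exact zeros that may be failed estimates, VLDLR having 111 reads in WT replicate 1 and 0 in the other WT replicates.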
